A study of Homo sapiens with 32 samples.

Results

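The comparison set METTL3 knockdown against control in LOVO, an established human colorectal adenocarcinoma cell line. It rests on 2 of the 12 deposited lists of m6A peaks, with 67302 of 338017 peaks, or 19.9%. The knockdown list comes from cells labelled shMETTL3 with the genotype METTL3 knockdown, and the control list from cells labelled Control with the genotype WT. Both groups had 2 libraries of methylated RNA immunoprecipitation (MeRIP) and 2 of input, but 1 peak list each. Chromatin-associated RNA was fragmented, pulled down with an m6A antibody and sequenced as stranded libraries. The sources used here name no hairpin sequence, number of clones or time after knockdown. Since neither group has a replicate list, all values below are descriptions with no test. The 95% intervals are exact Clopper-Pearson intervals and cover counting error only. They treat regions as independent, although regions of 1 gene share a transcript.

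METTL3 is the catalytic subunit of the nuclear complex that places N6-methyladenosine (m6A) on RNA while it is being made. METTL14, WTAP, VIRMA, ZC3H13, CBLL1 and RBM15 are further parts of that complex. It favours an adenosine in a short sequence context of which GGACT is a well-known form, and on mature mRNA the mark is densest in long internal exons and near the stop codon. Reader proteins such as YTHDC1 bind m6A in the nucleus, and the demethylases FTO and ALKBH5 remove it. Antibodies to m6A also bind m6Am, a related mark beside the cap of mRNAs that another enzyme, PCIF1, makes. Chromatin-associated RNA is rich in unspliced transcripts. Exons and introns were not told apart here.

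Peaks of chromosomes 1 to 22 and X were compared by strand. A region is gained when it is in the knockdown list and no control peak overlaps it by at least 1 bp, lost when it is in the control list and no knockdown peak overlaps it, and kept when a peak of the other list does. These words describe membership of a list. A region can leave a list through less methylation, less RNA of that gene or a weaker call. Input RNA was not analysed here, so changes in methylation and changes in RNA amount cannot be told apart.

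The starts of genes are shown first, because regions there were many more in the knockdown list. RefSeq windows of GRCh38.p14 around 27195 gene starts were searched for a same-strand region on the first 50 transcribed bases. Regions of the knockdown list alone lay on 447 of these starts, regions of the control list alone on 51, and regions of both lists on 348. A region counted here may still meet a peak of the other list outside those 50 bases, so these are not counts of gained and lost regions. The windows below run from 100 bases before the start to the first 30 transcribed bases, and capitals mark the bases under the listed region. They are the highest-scoring protein-coding starts whose region covers all 50 transcribed bases and was gained, lost or kept as a whole. CHD4, a chromatin remodelling ATPase of the NuRD complex (chr12:6606422-6606551, minus strand), SLC39A11, a zinc transporter (chr17:73092659-73092788, minus strand), and SRRM2, a splicing-speckle protein (chr16:2752538-2752667, plus strand), were under gained regions.
CHD4: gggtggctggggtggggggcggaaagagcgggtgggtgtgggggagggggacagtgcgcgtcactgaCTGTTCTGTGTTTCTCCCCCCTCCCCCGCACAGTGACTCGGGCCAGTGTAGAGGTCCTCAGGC
SLC39A11: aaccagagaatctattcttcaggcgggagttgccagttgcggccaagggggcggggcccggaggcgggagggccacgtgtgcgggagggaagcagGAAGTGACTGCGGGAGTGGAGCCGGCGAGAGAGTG
SRRM2: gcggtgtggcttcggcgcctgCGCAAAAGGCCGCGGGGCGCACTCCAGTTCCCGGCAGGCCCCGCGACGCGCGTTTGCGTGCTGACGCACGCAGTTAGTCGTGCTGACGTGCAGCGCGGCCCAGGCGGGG

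The start of P4HA2, a collagen prolyl hydroxylase subunit (chr5:132227062-132227191, minus strand), was under a lost region. The start of SH3KBP1, an adaptor of receptor endocytosis (chrX:19833122-19833251, minus strand), was under a kept region of the knockdown list.
P4HA2: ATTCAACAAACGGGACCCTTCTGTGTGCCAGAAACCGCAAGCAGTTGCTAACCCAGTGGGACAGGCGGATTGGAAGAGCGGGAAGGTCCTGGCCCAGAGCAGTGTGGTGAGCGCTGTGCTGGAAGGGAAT
SH3KBP1: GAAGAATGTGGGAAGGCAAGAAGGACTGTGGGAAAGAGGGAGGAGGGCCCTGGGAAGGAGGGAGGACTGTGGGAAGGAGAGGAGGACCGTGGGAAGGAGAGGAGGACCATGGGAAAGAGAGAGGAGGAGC

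In the CHD4 and SLC39A11 windows the region begins 33 and 5 bases before the annotated start, and in SRRM2 it begins 79 bases before it. In P4HA2 and SH3KBP1 the region covers all 100 upstream bases shown. GC content of the windows shown was 68.5% in CHD4, 66.9% in SLC39A11 and 73.8% in SRRM2, against 57.7% in P4HA2 and 60% in SH3KBP1. The next kept start by score, that of PFKP, had 74.6%, above all 3 gained ones. Over the full windows of 300 bases, median GC content was 67% at the 447 starts of the knockdown list alone, 60.3% at the 51 of the control list alone, 64.7% at the 348 of both lists and 58.3% over all windows. The letters GGACT on the transcribed strand occurred in 32.4% of the 447 windows, 29.4% of the 51 and 28.7% of the 348, against 25.2% of all windows. Of the 300 bases of a window 250 lie upstream of the start. In the first 50 transcribed bases alone the shares were, in the same order, 6.49%, 5.88%, 5.46% and 4.85%. Such a match describes the letters and not a methylated site.

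Seen by region, 521 regions of the knockdown list and 221 of the control list covered an annotated gene start or began within 50 bases of it on the sense strand. They made up 2.67% of the 19493 sense regions of the knockdown list and 1.01% of the 21977 of the control list. Of the 221 control regions, 9 were lost (4.07%, interval 1.88 to 7.59), where 37.8% of all control regions were. Of the 521 knockdown regions, 175 were gained (33.6%, interval 29.5 to 37.8), where 26.9% of all knockdown regions were. Gained starts lay in short and in long genes, with 31.7% of start regions gained in genes under 20 kb and 38.1% in genes of 100 kb or more. Start regions were wide, with a median of 444 bp in the knockdown list and 473 bp in the control list, where the medians over all regions were 288 and 299 bp. In the RKO lists, which come from another colorectal line, start regions made up 4.82% of sense regions in the list labelled knockdown and 1.07% in control. That RKO knockdown list shared only 45.1% of its regions with RKO control, where the LOVO knockdown list shared 73.1% with LOVO control.

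Away from the start the pattern turned round with distance in bases. From 51 to 500 bases after the start, 38.2% of knockdown regions were gained and 14.1% of control regions lost. From 2 to 10 kb the shares were 33.2% gained and 29.3% lost. Beyond 50 kb they were 19.7% gained (interval 18.7 to 20.7) and 44.1% lost (interval 43.1 to 45.2). Such regions lie only in genes longer than 50 kb, and distance and gene length were not told apart. With the gene cut into 10 equal parts, loss showed no such steady rise. It was 25.6% in part 1, 38.3% in part 2, 39.8% in part 5 and 32.8% in part 10. The gained shares of the same parts were 37.0%, 29.2%, 27.3% and 19.8%. At the annotated 3′ end the lists were nearer to each other: regions that covered it or ended within 50 bases of it numbered 155 in the knockdown list, 17.4% gained, and 187 in the control list, 9.63% lost. Of sense regions 51 bases to 2 kb before the end, 23.03% were gained and 27.7% lost.

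Gene length separated the lists in the same way. In genes of 5 to 20 kb, 34.7% of knockdown regions were gained (interval 33.4 to 36.1) and 26.4% of control regions lost (interval 25.1 to 27.7). In genes of 100 to 200 kb, 22.3% were gained and 41.3% lost. In genes of 500 kb or more, 21.8% were gained (interval 18.9 to 25) and 52.3% lost (interval 49.3 to 55.2). At 20 to 50 kb the intervals of both shares overlapped, with 29.7% gained and 30.8% lost, and at 50 to 100 kb 25.5% were gained and 38.6% lost. Protein-coding genes alone gave 35.8% gained and 24.6% lost at 5 to 20 kb, and 22.1% gained and 52.5% lost at 500 kb or more. Genes with regions in the knockdown list alone, 762 of them, had a median length of 17.5 kb, and the 1384 genes with regions in the control list alone one of 32.1 kb.

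**Figure D1:**
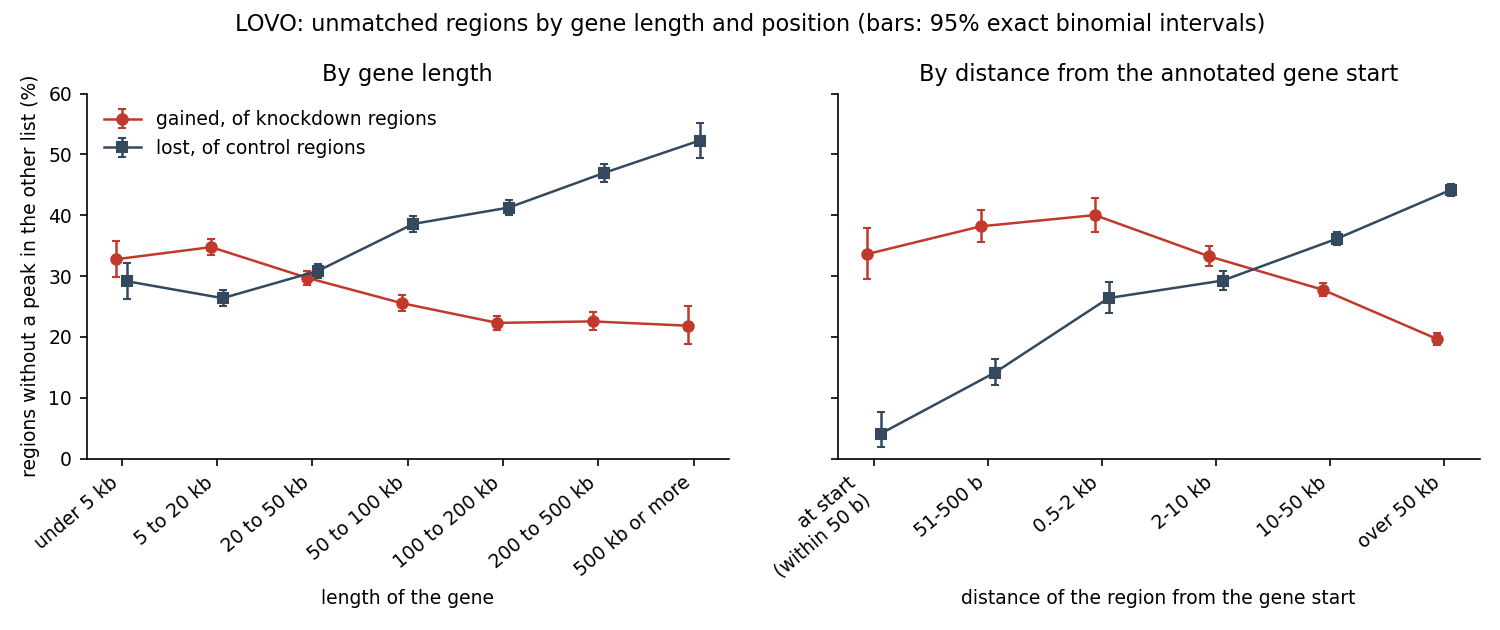
Share of regions without a peak in the other list, by length of the gene (left) and by distance of sense regions from the annotated gene start (right); circles are gained regions as a percent of knockdown regions, squares lost regions as a percent of control regions, and bars 95% exact binomial intervals. The lines cross near 20 to 50 kb of gene length and between 2 and 50 kb from the start.

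The lists also differed in size and in how much of the calls they keep. The knockdown list held 31060 regions and the control list 36242, covering 12.8 and 15.1 Mb, of which 9.31 Mb were shared. Gained regions numbered 8350, or 26.9% of the knockdown list (interval 26.4 to 27.4), and lost regions 13696, or 37.8% of the control list (interval 37.3 to 38.3). The highest numbers in the peak names, over both strands, came to 48390 for knockdown and 49333 for control, so nearly as many peaks had been numbered in both. The listed names are 62.0% of these numbers in the knockdown list and 72.8% in the control list. Names were repeated on separate pieces 1054 times in the knockdown list and 339 times in the control list. With the same number of highest-scoring peaks taken from both lists 32.8% were gained and 33.8% lost. In the full lists only 3.38% of kept knockdown regions and 3.91% of kept control regions met 2 or more peaks. With matches so near to 1 to 1, lists of equal size give close shares by construction. With names that occur once the shares were 28.4% and 41.3%. With regions of a score of at least 5 set against all peaks of the other list they were 17.3% and 26.3%.

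Width and score of the peaks went with presence in the other list. In the knockdown list gained regions had a median width of 185 bp and a median score of 4.55, against 338 bp and 6.04 for kept regions. In the control list lost regions had a median width of 203 bp and a median score of 4.82, against 383 bp and 6.76 for kept regions. The score is the authors' own, and it is read only within a list, since no header explains it. Among the lowest-scoring 10% of the knockdown list 50.2% of regions were gained, and among the highest-scoring 10% the share was 4.38%. In the control list 63.7% of the lowest-scoring 10% and 3.61% of the highest-scoring 10% were lost. By width the control list ran from 73.5% lost in the narrowest 10%, of 76 to 151 bp, to 4.63% in the widest, of 823 to 10012 bp. Width separated regions of like score too. Among the highest-scoring 20% of control regions, 52 of the 129 regions that were also in the narrowest 20% were lost (40.3%), and 95 of the 3422 in the widest 20% (2.78%).

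**Figure D2:**
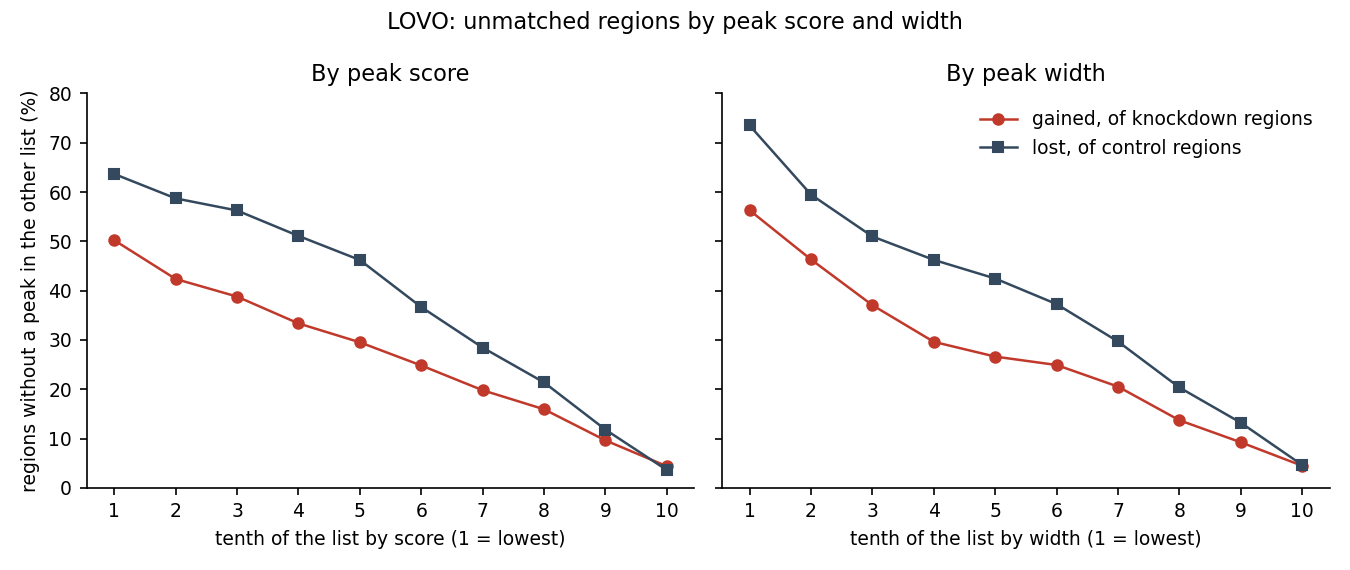
Share of regions without a peak in the other list, in steps of 10% of each list ordered by the authors' score (left) or by peak width (right); circles are gained regions of the knockdown list and squares lost regions of the control list. Gain falls to 4.38% and loss to 3.61% in the highest-scoring 10%.

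The differences by gene length and by position were present at like scores. Width was not held alike here, and start regions were wider than regions as a whole in both lists. Among the lowest-scoring 20% of control regions, 72.9% were lost in genes of 200 kb or more and 47.1% in genes under 20 kb. In the highest-scoring 20% the shares were 12.7% and 4.84%. Among the lowest-scoring 20% of knockdown regions, 39.1% were gained in genes of 200 kb or more and 60.7% in genes under 20 kb. At gene starts 68.8% of the 64 knockdown regions in the lowest-scoring 20% were gained, where 47.5% of sense regions elsewhere in genes were. Of the 29 control regions at gene starts in the lowest-scoring 20%, 1 was lost, where 59.6% of those elsewhere in genes were.

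Among gene classes, loss was highest between genes and in long non-coding RNA genes. Long non-coding RNA genes had 20.3% of knockdown regions gained (interval 18.1 to 22.6) and 46.9% of control regions lost (interval 44.6 to 49.2). In protein-coding genes 27.3% were gained (interval 26.8 to 27.8) and 36.3% were lost (interval 35.8 to 36.8). Other genes had 23.5% gained and 38.9% lost, and stretches between genes 26.1% and 50.4%. With every overlapped gene body counted, long non-coding minus protein-coding was -4.24 points for gain and 5.05 points for loss, against -7.02 and 10.6 points with 1 class per region. At like scores long non-coding genes again lost more, with 77.8% of their regions and 59.1% of protein-coding regions lost in the lowest-scoring 20% of the control list. Regions antisense to the single gene they overlap were lost in 47.3% of cases and sense regions in 36.4%, while gain was 27.4% antisense and 27.7% sense. Protein-coding genes held 89.1% of knockdown regions and 86.5% of control regions.

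Chromosomes fell in nearly opposite orders for gain and loss. Chromosome 19, where protein-coding genes have a median length of 14335 bp, had 35.7% of knockdown regions gained (interval 33.6 to 37.8) and 26.3% of control regions lost (interval 24.3 to 28.4). On chromosome 22 the shares were 31.6% and 28.7%, and on chromosome 16 they were 31.6% and 30.5%. Chromosome X had 22.2% gained and 45.3% lost, chromosome 13 had 17.2% and 45.3%, and chromosome 4 had 22.9% and 45.1%. Gain was above loss on 4 of 23 chromosomes, 16, 17, 19 and 22. The intervals of chromosomes 16, 17 and 22 for gain and loss overlap, and those of chromosome 19 do not. Over the 23 chromosomes, which share both lists and differ in gene length, gain and loss had a Pearson r of -0.91. With the median length of protein-coding genes on a chromosome, r was -0.77 for gain and 0.68 for loss. Chromosome X departs from this, with a median of 16189.5 bp and the highest lost share.

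**Figure D3:**
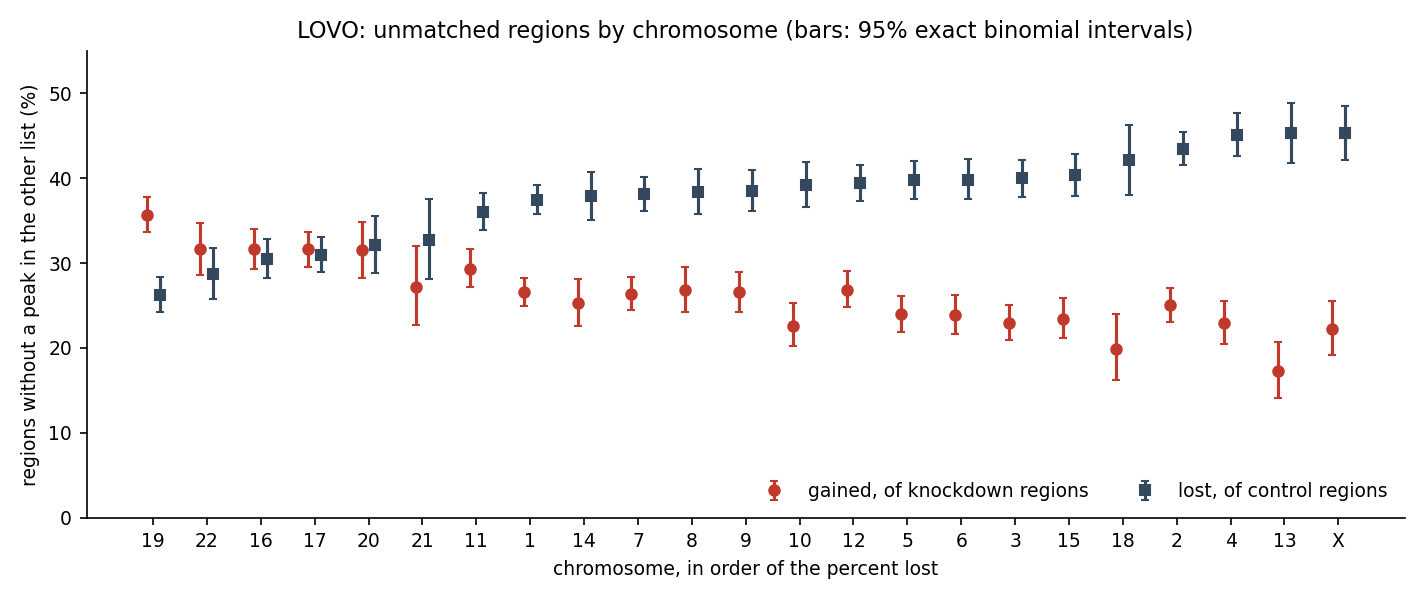
Share of regions gained, of knockdown regions (circles), and lost, of control regions (squares), on each of 23 chromosomes in order of the percent lost, with 95% exact binomial intervals. Chromosome 19 has 35.7% gained and 26.3% lost, and chromosome X 22.2% and 45.3%.

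At finer scale, in 426 windows of 5 Mb with at least 30 control regions, the lost share lay between 17.0% and 67.6%, with a median of 40%. A window on chromosome 20 from 60 to 65 Mb had 49 of 140 knockdown regions gained and 19 of 112 control regions lost (interval for loss 10.5 to 25.2%). A window on chromosome 6 from 50 to 55 Mb had 6 of 17 gained and 23 of 34 lost (interval for loss 49.5 to 82.6%). Neighbouring regions of a gene went together to some degree. The next region along was also lost in 46.8% of cases after a lost region and in 32.2% after a kept one, and also gained in 39.0% after a gained region and in 23.3% after a kept one. Few unmatched regions were near misses: 4.60% of gained and 3.69% of lost regions had a same-strand peak of the other list within 200 bp.

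Gene by gene, 9827 genes held a region that overlapped no other gene. Of these, 43.3% had fewer regions in the knockdown list than in the control list and 27.1% had more, and genes are named below for extreme counts, so the counts serve as descriptions. Among the 10 genes with most lost regions, PTPRN2, a receptor-type phosphatase of secretory vesicles (chromosome 7, 157539056 to 158587823), had 0 regions in the knockdown list and 15 in the control list. MTAP, methylthioadenosine phosphorylase of the methionine salvage pathway (chromosome 9, 21802636 to 21941115), had 6 regions in the knockdown list and 20 in the control list, 15 of them lost. SPIDR, a scaffold of homologous recombination on chromosome 8, had 29 regions in the knockdown list and 37 in the control list. The long non-coding RNA gene LOC107985710 on chromosome X had 5 and 20. PTPRN2 also varied between other lists: it had 29 regions in the list labelled RKO knockdown and 12 in RKO control.

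Among the 10 genes with most gained regions, JAG2, a Notch ligand (chromosome 14, 105140995 to 105168776), had 15 regions in the knockdown list and 2 in the control list, with 13 gained and 0 lost. CROCC, the rootletin gene of the ciliary rootlet, had 12 and 2, GOLGA3, a Golgi matrix protein, 21 and 10, RRBP1, the endoplasmic reticulum ribosome-binding protein, 16 and 7, FBRSL1 18 and 7, and AGAP1, a regulator of endosomal traffic, 19 and 13. In the RKO lists most of the genes named here went the other way. Over all genes the list labelled RKO knockdown held fewer regions too, 25572 against 30640 in RKO control. JAG2 had 1 region in the list labelled knockdown and 2 in control, CROCC 0 and 4, RRBP1 3 and 11, and GOLGA3 6 and 15. FBRSL1 had 2 and 1, and AGAP1 9 and 8. Of others among the 10 genes, FAM20C had 17 and 0 in the same RKO lists, MAD1L1 11 and 14, and ABR 5 and 7.

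**Figure D4:**
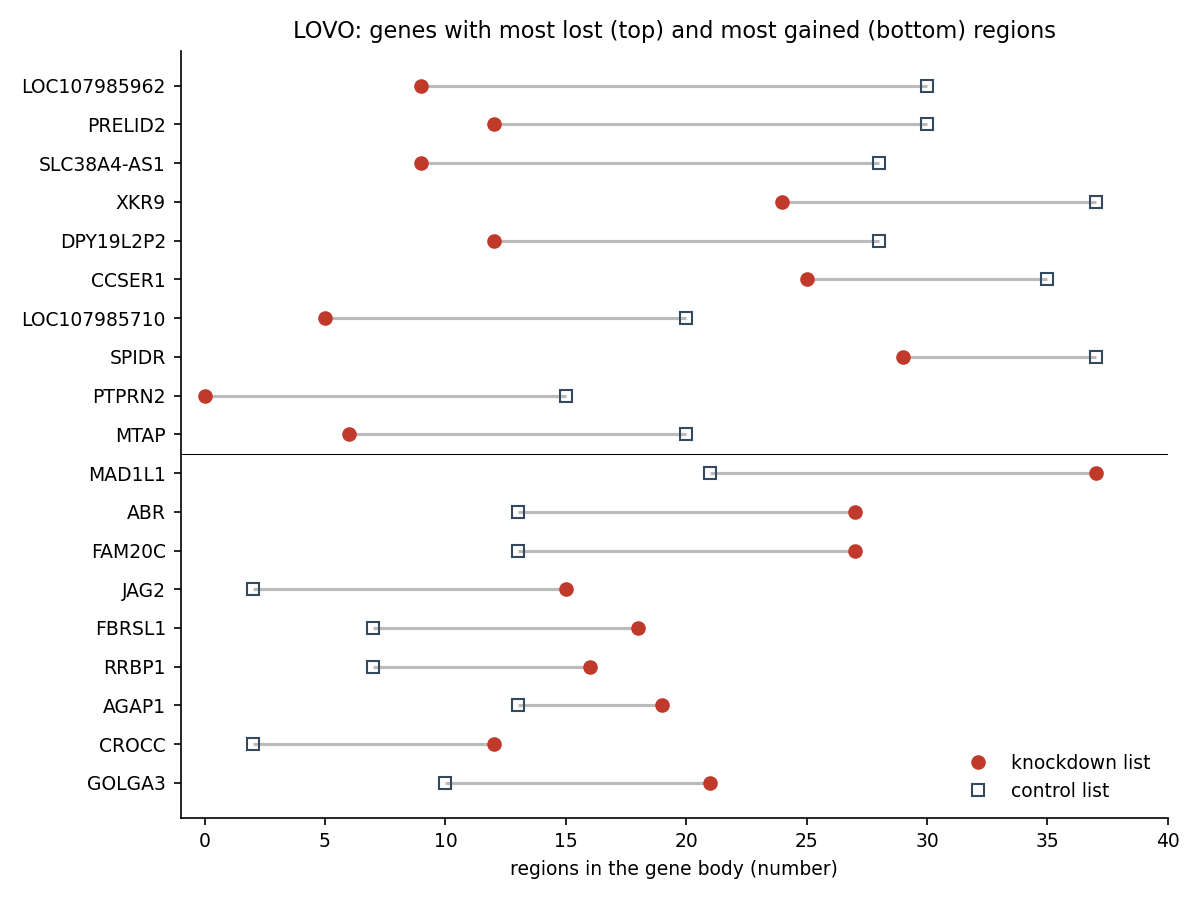
Number of regions in the gene body in the knockdown list (filled circles) and in the control list (open squares), for the 10 genes with most lost regions (above the line) and 9 of the 10 with most gained regions (below it). PTPRN2 has 0 and 15, and JAG2 15 and 2.

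Among 426 genes with at least 10 control regions the median gene lost 40.6% of them. Those with the highest lost share after PTPRN2 were COL16A1, a fibril-associated collagen, with 1 region in the knockdown list and 12 in the control list, FRMD4A, a scaffold of cell polarity, with 1 and 11, LAMA3, the laminin-332 alpha chain, with 2 and 10, and RAP1GDS1, an exchange factor for small GTPases, with 1 and 10. At the other end, several genes with 10 or more control regions lost 0 of them. CGN, the tight-junction protein cingulin, had 19 regions in the knockdown list and 13 in the control list, and SETD1B, an H3K4 methyltransferase, 13 and 13. CHAF1A, a subunit of chromatin assembly factor 1, had 12 and 12, LRP5, a Wnt co-receptor, 14 and 11, and CLIP2, a microtubule-binding protein, 19 and 12. The 8 genes with the highest lost share span 51.8 to 1049 kb and the 8 with the lowest 28.5 to 151 kb.

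Some genes were in 1 list only. With at least 3 regions, 40 genes had regions in the knockdown list and none in the control list, and 101 had the reverse. ABLIM3, an actin-binding LIM protein, had 0 regions in the knockdown list and 7 in the control list. CACNG8, an AMPA receptor auxiliary subunit, had 0 and 6, CBR4, a mitochondrial carbonyl reductase, 0 and 6, ALDH5A1, succinate semialdehyde dehydrogenase, 0 and 5, and LPAR1, a lysophosphatidic acid receptor, 0 and 5. Of the genes in the knockdown list alone, BSG, the monocarboxylate transporter chaperone basigin, had 5 and 0, ACTB, cytoplasmic beta-actin, 4 and 0, and PKM, pyruvate kinase, 4 and 0. BAP1, a deubiquitinase, and LAMA5, the laminin-511 alpha chain, had 4 and 0 each. The 8 genes named by this count of knockdown regions are 3.45 to 58.2 kb long.

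Single regions with high scores or great width could also be unmatched. The gained region with the highest score, 36.7, lay in PPP1R12C, a myosin phosphatase subunit (chr19:55098650-55099165, minus strand). It carries the same score as the kept region of that gene at 55095892 to 55098190 in the same list. The widest gained region, 9179 bp, lay in AHNAK, the gene of a giant scaffold protein (chr11:62525022-62534200, minus strand), with a score of 3.04, and control lists of the other lines held a peak there in 5 of 5 cases. The lost region with the highest score, 20.2, lay in ZNF397, a zinc-finger gene (chr18:35243543-35243999, plus strand), followed by one in BRPF1, a reader subunit of MOZ acetyltransferase complexes (chr3:9740146-9740300, plus strand), with 19.1. The widest lost region, 2796 bp, lay in RILPL1, and another of 2390 bp in KDM5A, an H3K4 demethylase (chr12:374067-376456, minus strand). The widest region of either list was kept: in NSUN6, a tRNA and mRNA methyltransferase gene, it covered 9954 bp in the knockdown list and 10012 bp in the control list.

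The writer complex itself was examined next. METTL3 (chromosome 14) had 2 regions in either list. A kept pair lay at 21503228 to 21503913 in the knockdown list and 21503190 to 21503520 in the control list. One region of the knockdown list alone lay at 21510924 to 21511232, near the gene's 5′ end, and one of the control list alone at 21501818 to 21502033. A peak marks antibody-bound RNA and is no measure of the transcript's level, and the knockdown is thus not checked by them. Over the 8 genes of the complex, 3 of 27 knockdown regions were gained (11.1%, where 27.5% were over all genes) and 7 of 27 control regions lost (25.9%, interval 11.1 to 46.3, which holds the 37.2% over all genes). ZC3H13, a zinc-finger subunit, held 11 and 13 regions, VIRMA, a scaffold, 5 and 4, METTL14, the RNA-binding partner of METTL3, 1 and 2, and WTAP, the localising subunit, 0 and 0. Among readers and erasers, the demethylase FTO had 5 and 8 and the nuclear reader YTHDC1 6 and 8.

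Gene lists were compared with all genes, in which 27.5% of 25401 knockdown regions were gained and 37.2% of 29132 control regions lost. Of 26 lists with at least 20 control regions, the interval for the lost share lay above 37.2% in 3, below it in 2 and held it in 21. In fragile-site and very long genes 21 of 137 knockdown regions were gained (15.3%) and 113 of 224 control regions lost (50.4%, interval 43.7 to 57.2). The list's genes with a control region have a median length of 900 kb. In all genes of 500 kb or more 21.8% were gained and 52.3% lost, and this lost share lies inside the interval. The part of gene length was not tested. Of the 25 genes 15 had a region, and 13 of these had fewer in the knockdown list, where 43.3% of all genes with a region did, among them EXOC6B, an exocyst subunit, with 9 and 23, GPHN, gephyrin, with 11 and 23, EXOC4 with 8 and 17, and FHIT, a fragile-site tumour suppressor, with 13 and 24. Intergenic long non-coding RNA genes with a LINC name had 18.7% gained and 46.5% lost (interval 40.2 to 52.8). That interval holds the 46.9% lost in the whole class of long non-coding RNA genes, where 20.3% were gained.

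Adhesion, polarity and junction genes were the third such list, with 26 of 83 knockdown regions gained (31.3%) and 52 of 109 control regions lost (47.7%, interval 38.1 to 57.5). The median lost share over its genes was 33.3%, as over all genes. Its genes with a control region have a median length of 102 kb, and the 41.3% lost in all genes of 100 to 200 kb lies inside the interval. That median is over genes, and MAGI3 and PARD3B, which hold the most control regions of the list, span 295 and 1075 kb. The part of gene length was not tested. Of the 21 genes with a region, 11 had fewer in the knockdown list and 7 had more, where 43.3% and 27.1% of all genes with a region did. The polarity scaffold PARD3B had 6 regions in the knockdown list and 17 in the control list, MAGI3 8 and 17, the tight-junction scaffold TJP1 4 and 9, and DLG1 1 and 6. SCRIB, a polarity gene, had 8 and 2, and ITGB4, the integrin of hemidesmosomes, 5 and 1.

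Histone methyltransferases and demethylases were one of the 2 lists below all genes. Of their 210 knockdown regions 46 were gained (21.9%), and of their 198 control regions 42 were lost (21.2%, interval 15.7 to 27.6). Those with a control region have a median length of 96.5 kb, and of all control regions in genes of 50 to 100 kb 38.6% were lost. Here too the part of gene length was not tested. KMT2D, an H3K4 methyltransferase, had 23 regions in the knockdown list and 16 in the control list, with 1 lost. NSD2, an H3K36 methyltransferase, had 18 and 17, with 3 lost, KMT2B 12 and 8 and KDM2B 11 and 8, with 0 lost in both. ASH1L, another H3K36 methyltransferase, went the other way with 8 and 13. The other list below all genes was ZNF genes outside chromosome 19, with 17.4% gained and 29.2% lost (interval 25.2 to 33.4), and ZNF genes on chromosome 19 had 15.9% and 31.6% (interval 25.1 to 38.7). The interval of the chromosome 19 list holds the 37.2% of all genes.

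For the pathways of colorectal cancer named here, the interval for loss held the value of all genes. Wnt pathway genes had 34 of 121 knockdown regions gained (28.1%) and 40 of 123 control regions lost (32.5%, interval 24.4 to 41.6). Among them LRP6 had 12 regions in either list, AXIN1, a scaffold of beta-catenin destruction, 11 and 8, APC 4 and 5, and TNKS, a tankyrase, 4 and 12. TGF-beta and BMP genes had 30.2% gained and 45.6% lost (interval 33.5 to 58.1), and of the 20 genes with a region 12 had fewer in the knockdown list and 1 had more, where 43.3% and 27.1% of all genes with a region did. Their receptors ACVR1B and BMPR1B had 0 and 3, and 3 and 5, with none of the control regions kept, while TGFBR2 had 4 and 4, all kept. Homologous recombination and Fanconi anaemia genes had 18.3% gained and 31.5% lost (interval 22.2 to 42.04), with BRCA1 at 4 and 3 and BRCA2 at 6 and 6. RAS, RAF and PI3K genes had 39.4% gained and 35.3% lost.

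**Figure D5:**
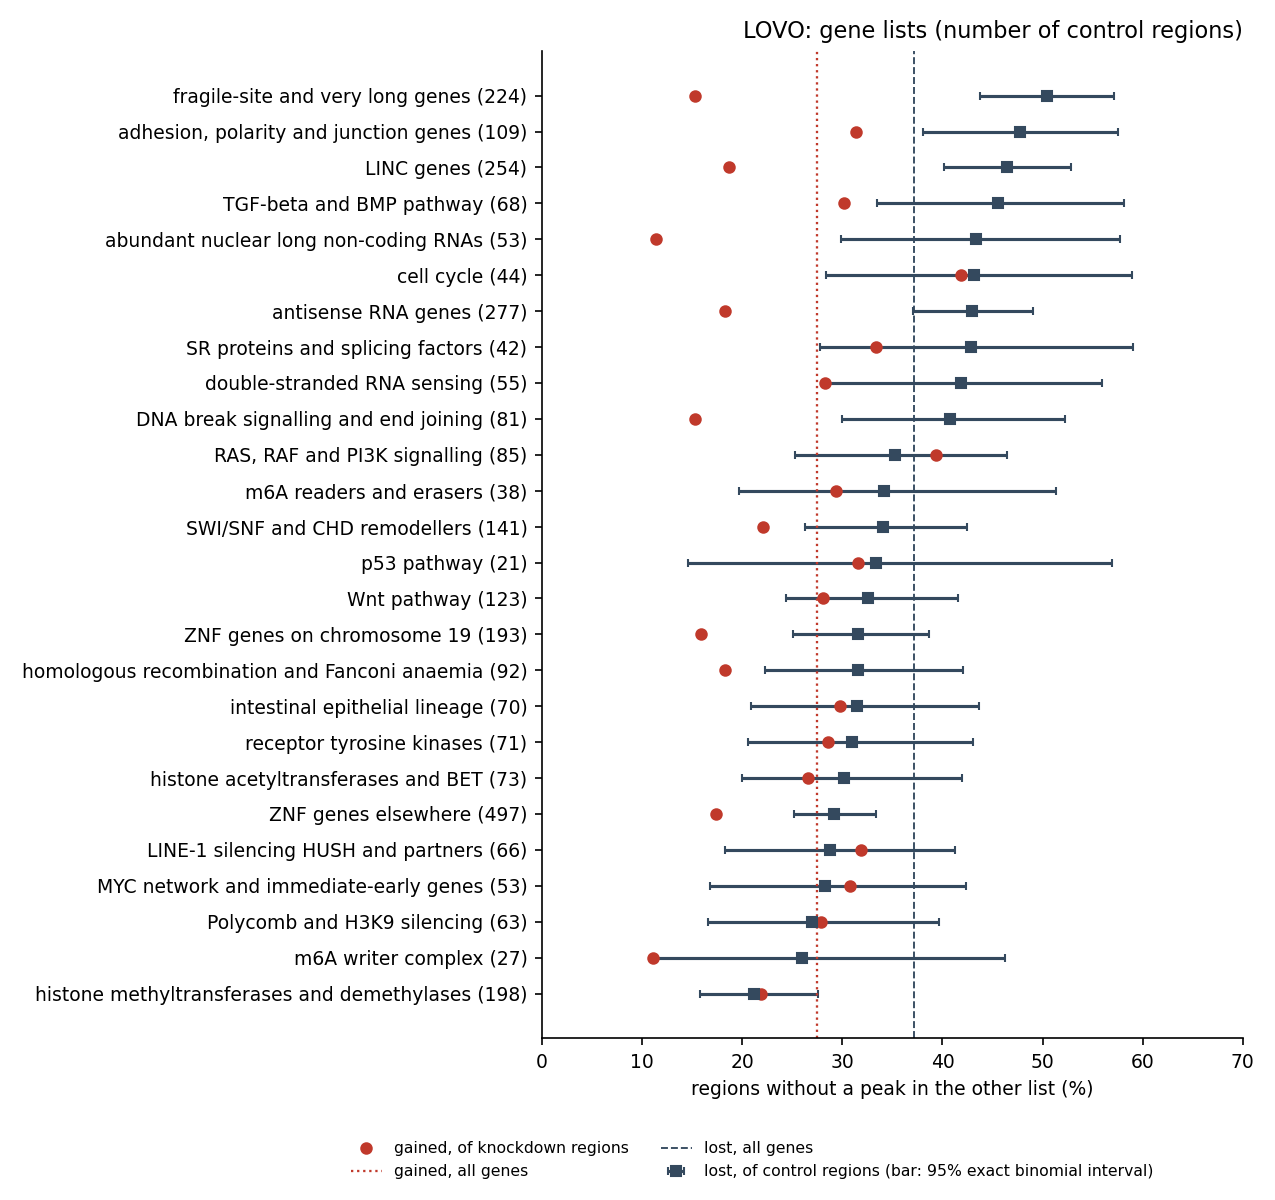
Share of regions gained, of knockdown regions (circles), and lost, of control regions (squares with 95% exact binomial intervals), for 26 gene lists with at least 20 control regions, whose number stands in parentheses; vertical lines are the shares over all genes, 27.5% gained (dotted) and 37.2% lost (dashed). Fragile-site and very long genes stand at 50.4% lost, histone methyltransferases and demethylases at 21.2%.

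Markers of the line's tissue were present in both lists. Of 15 colon epithelium markers 11 had a region in the knockdown list and 10 in the control list, for example HNF4A with 8 and 5, CDX2 with 3 and 4 and CDH17 with 4 and 4. None of 7 fibroblast or 5 endothelial markers had a region in either list. Of 5 ovarian or Muellerian markers PAX8 had 0 and 1.

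Regions over miRNA hairpins were few. Of 1558 RefSeq hairpins 60 overlapped a same-strand region, some of them by only a few bases. Of these, 12 overlapped gained regions, 4 lost regions and 29 kept regions in both lists. Over all regions 26.9% were gained and 37.8% lost, and counts this small are given as a description only. In the remaining 15 the region was kept, but the peak of the other list ended short of the hairpin. No bases 2 to 8 of the mature forms, the seed that pairs with targets, were shared among the 29 mature miRNAs of the gained and lost hairpins. Shown are the mature forms of the 3 gained hairpins with the highest region scores, with the seed in capitals, from RefSeq (GRCh38.p14). Those of 3 of the 4 lost hairpins follow, which are not the 3 with the highest region scores. MIR6895 (chrX:53195411-53195488, minus strand) lies in KDM5C, MIR7109 (chr22:31621467-31621531, minus strand) in PISD and MIR6872 (chr3:50273236-50273297, plus strand) in SEMA3B. Of the lost ones, MIR7844 (chr12:94571231-94571352, minus strand) lies in TMCC3, MIR1910 (chr16:85741621-85741700, minus strand) in C16orf74 and MIR6865 (chr17:4970086-4970150, minus strand) in CAMTA2. The lost region at MIR1910 ends at 85741657 and does not reach the 5p form, at 85741669 to 85741689.
hsa-miR-6895-5p: cAGGGCCAggcacagaguaag
hsa-miR-6895-3p: uGUCUCUCgcccuuggccuuag
hsa-miR-7109-5p: cUGGGGGGaggagacccugcu
hsa-miR-7109-3p: cAAGCCUCuccugcccuuccag
hsa-miR-6872-5p: uCUCGCAUcaggaggcaagg
hsa-miR-6872-3p: cCCAUGCCuccugccgcgguc
hsa-miR-7844-5p: aAAACUAGgacuguguggugua
hsa-miR-1910-5p: cCAGUCCUgugccugccgccu
hsa-miR-1910-3p: gAGGCAGAagcaggaugaca
hsa-miR-6865-5p: uAGGUGGCagaggagggacuuca
hsa-miR-6865-3p: aCACCCUCuuucccuaccgcc

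The other lines showed how common these regions were elsewhere. Of the 5 control lists of RKO and the ovarian cancer lines OVCAR8 and SKOV3, 49.1% of gained regions were in none, against 37.6% of lost regions and 16.1% of kept regions of either list. In all 5 lists were 5.43% of gained regions, 7.45% of lost regions and 33.5% of kept knockdown regions. RKO control, the other colorectal line, held a peak at 29.2% of gained regions, 48.5% of lost regions and 73.5% of kept control regions. In the 2 OVCAR8 control lists the shares were 25.1% and 26.0% of gained regions and 21.3% and 21.5% of lost regions, so there gained regions were present more often than lost ones. In the 2 SKOV3 control lists they were 19.6% and 20.4% of gained regions and 25.9% and 26.3% of lost regions.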

How the data were processed

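Peak positions on hg38 were deposited by the authors as 1 list per LOVO group. The submitters' processing notes name MACS2 2.2.7.1, HISAT2 2.1.0, Bowtie2 2.4.2 and Trim Galore 0.6.6 without saying what each did. Per the labels' protocols, spike-in RNA was added before fragmentation and pull-down. The deposited score per peak has no header, and no score is below 3. Peak names cite replicate 1, and no source used here says how replicate 2 entered. Read depth is unknown, so no depth-based interval was made.

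Same-strand peaks of chromosomes 1 to 22 and X were merged (none overlapped). A region with no overlap of at least 1 bp was called lost or gained. Genes came from the RefSeq table of GRCh38.p14, by gene body. Regions in several bodies were left out of gene counts, and protein-coding came first in classes. Strand was known for genes in the promoter table. Python 3.11.15 with pandas 2.3.3 was used, and the overlap code was tested on simulated lists. Named genes were the 10 with most lost or gained regions, the 8 with the highest and lowest lost share among those with at least 10 control regions, the 8 with most regions in 1 list only, and the highest-scoring and widest regions. Alternatives were 50% cover, 200 bp proximity or merging, a score of at least 5, equal list sizes, either strand, unrepeated names and every gene body. Lists and members were chosen with earlier results of these data known, and the comparisons by gene length and gene start were added after seeing the data. A few genes that meet these rules are not reported here.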

Additional observations from a re-analysis of the deposited data

Results flagged for a closer look

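For several shares of regions, knockdown minus control ran in opposite directions in the LOVO and RKO lists as labelled, with 1 list per group in both lines; the difference between the lines was not tested. For protein-coding genes it was 2.54 percentage points in LOVO and -7.88 in RKO. For long non-coding RNA genes it was -1.08 in LOVO and 2.74 in RKO, for other genes -0.13 and 0.24, and between genes -1.33 and 4.91. For genes of 200 kb or more, as a share of regions in 1 gene body, it was -4.16 in LOVO and 1.98 in RKO. For sense regions at the annotated gene end it was -0.056 in LOVO and 0.33 in RKO. Loss itself was higher in long genes in both lines. In genes of 200 kb or more and under 20 kb it was 48.0% and 26.9% in LOVO, and 70.3% and 50.4% in RKO. Gain in these genes was 22.4% and 34.4% in LOVO, and 66.7% and 50.8% in RKO. The list labelled RKO knockdown shares 45.1% of its regions with its own control, and the part of this in the opposite signs was not tested.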

How the results depend on the processing

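No paired analysis was possible because each group has 1 peak list. Over 13 compared results, 59 of 106 values under alternatives stayed within the counting error or spread of the reported value, 47 moved and 0 reversed. The gained and lost shares among them cannot change sign, so only the differences could have reversed. The gene start share uses no match between lists. Its values under 50% cover, 200 bp proximity and either-strand overlap were thus fixed in advance and are counted among the 59. The gained share, 26.9% as reported, was 30.9% when 50% of a region had to be covered, 25.6% when a peak within 200 bp sufficed, 29.9% with a score of at least 5 in both lists, 17.3% with that score against all peaks of the other list, 32.8% with equal numbers of highest-scoring peaks and 28.4% with names that occur once. In the same order the lost share, 37.8% as reported, was 44.2%, 36.4%, 44.7%, 26.3%, 33.8% and 41.3%, and with overlap on either strand it was 37.0%. Equal list sizes bring gain and loss close together by construction. The median score of gained minus kept regions was -1.36 with 50% cover, -1.33 and -1.17 with a score of at least 5 in both lists and against all peaks, -1.62 with equal list sizes and -1.42 with names once; for lost minus kept it was -1.78, -2.06, -1.70, -1.84 and -1.83, and -2.02 with peaks within 200 bp merged. Median width of gained minus kept regions was -122 bp with 50% cover, -181 and -199 bp with the score minimum, -145 bp with names once and -164 bp merged; for lost minus kept it was -132, -187, -203, -163 and -201 bp, and -194 bp with equal list sizes. Genes of 200 kb or more minus genes under 20 kb differed in gain by -15.2 points with 50% cover and -8.81 with the score minimum against all peaks, and in loss by 23.7 and 16.6 points, 19.3 with equal list sizes and 17.4 with names once. Long non-coding minus protein-coding loss was 8.22 points with the score minimum against all peaks, and with every overlapped gene body it was 5.05 points, and -4.24 for gain. Chromosome X minus 19 in loss was 15.0 points with names once. The gene start share, knockdown minus control, was 2.16 points with the score minimum, either way it was applied. The causes of these shifts were not tested. Of 518 values for gene lists 64 moved by the same rule. Of 450 counts for named genes 89 moved, which there means past a fixed fold limit or to or from 0, not past counting error. These shares and counts cannot be negative, so a reversal was not possible for them.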
